A study of Mus musculus and synthetic construct with 30 samples.

Results

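The effect of the *Peril* knockout on gene expression was compared between mouse embryonic stem cells (mESC) and embryonic kidney. Of the 30 samples of the series, the 12 RNA-seq libraries of these 2 tissues were chosen by their labels, 6 per tissue, with 3 wild-type (WT) and 3 knockout (KO) libraries each. For every gene the difference KO minus WT in mESC was set against the difference KO minus WT in kidney, and the gap between them, here called the interaction difference, was tested. A positive interaction difference says that the gene was higher after knockout in mESC relative to its change in kidney. All differences are log2 values. The fit held all 16 RNA-seq libraries, because 4 libraries of ganglionic eminence and olfactory bulb (GEOB, litter 46) added to the estimate of the spread.

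*Peril* is a long intergenic noncoding RNA (lincRNA) locus on chromosome 3, next to *Sox2*, the gene of a transcription factor that keeps stem cells pluripotent. The authors found its RNA in stem cells but not in embryonic brain or kidney. A reporter placed in the locus was active in stem cells and in the brain. A DNA element that works as an enhancer usually does so in some cell types and not in others, so a loss that acts through such an element can change a target gene in one tissue and leave it alone in another. A change that is alike in both tissues has no such dependence on the tissue.

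In the strain Periltm1.1Vlcg the *Peril* gene body is replaced by a *LacZ* cassette and the promoter is kept. The mESC were derived from D3.5 embryos, are male, and were grown in 2i medium on feeder fibroblasts. The 3 WT wells come from 1 clone and the 3 KO wells from 1 other clone, so a difference between the genotypes cannot be told apart from a difference between the 2 clones, and the wells measure technical and culture spread only. In the authors' sample sheet the WT and KO wells also carry different passage numbers. The kidneys are from E14.5 embryos of litter 43, progeny of heterozygous matings on a mixed C57BL/6J and 129S6 background. The WT kidneys are 2 males and 1 female, and the KO kidneys are 1 male and 2 females. Each kidney library is 1 embryo, so the kidney comparison is between littermates and the mESC comparison between clones.

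*LacZ*, the reporter that stands in for the deleted gene body, was near 0 in the WT wells (0.02, 0.07 and 0.03 TPM, the transcript level scaled to gene length and library size) and at 71.6, 73.7 and 69.6 TPM in the KO wells. In kidney it was at 0.33, 0.47 and 0.09 TPM in WT and at 0.08, 0.1 and 0.15 TPM in KO, so that the genotypes overlapped. *Peril* itself had 8, 18 and 11 counts in the WT wells, 8, 3 and 7 counts in the KO wells and 0 counts in each of the 6 kidney libraries, which allows up to 0.0375 CPM (counts scaled to library size) over the WT kidneys and 0.0268 CPM over the KO kidneys. It was too low to be tested. The targeted locus thus separates the genotypes in mESC and checks no kidney label.

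The tissues carried their own markers. The summed level of 8 stem cell markers, among them *Pou5f1* and *Nanog*, was 8270 to 8622 TPM over the mESC libraries and 6.73 to 11.9 TPM over the kidneys. The summed level of 10 kidney markers, among them *Six2* and *Wt1*, was 499 to 589 TPM over the kidneys and 10.2 to 13.5 TPM over the mESC libraries. Library totals ran from 17544650 to 40522586 counts in mESC and from 19263081 to 45924859 in kidney. KO well 1 stood apart from the other KO wells. The spread of its counts against well 2 and well 3 was 9.61 and 10.2 times the sampling noise, against 3.1 between wells 2 and 3 and 1.89 to 2.72 between WT wells. Pairs of littermate kidneys stood at 13.5 to 28.9, so no library was a copy of another.

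The interaction was called (edgeR's quasi-likelihood test, Benjamini-Hochberg adjusted p under 0.05) for 391 of 17459 genes, or 2.24%. Of these, 129 (0.739%) were higher in mESC relative to kidney and 262 (1.5%) were lower. An unadjusted p under 0.05 was reached by 2699 genes. In mESC alone 1198 genes (6.86%) were called, 397 higher (2.27%) and 801 lower (4.59%) in KO, whereas 39 genes (0.223%) were called in kidney, 6 higher (0.0344%) and 33 lower (0.189%). The median interaction difference over all tested genes was −0.032, and the values below are not adjusted for it.

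Most genes called in the interaction had moved in the stem cells. Among the 391 genes, 347 were called in mESC and not in kidney, 13 in kidney and not in mESC, 3 in both and 28 in neither. The difference was larger in mESC for 354 genes and larger in kidney for 37. Their median absolute difference was 0.5 in mESC and 0.11 in kidney, and the 2 differences had opposite signs for 298 of them. The genes were called by the gap between the 2 differences, which itself favours opposite signs, so this count is a description. Calls in both tissues in opposite directions were reached by 2 of them. Protein-coding genes made up 378 of the 391. A further 848 genes were called in mESC without a call of the interaction. For 307 of these the 95% interval of the interaction difference lay within 0.5 on either side of 0. For the others it reached further, so that a tissue dependence of that size remained possible.

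The plot of both differences for each gene shows these shapes.

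**Figure D1:**
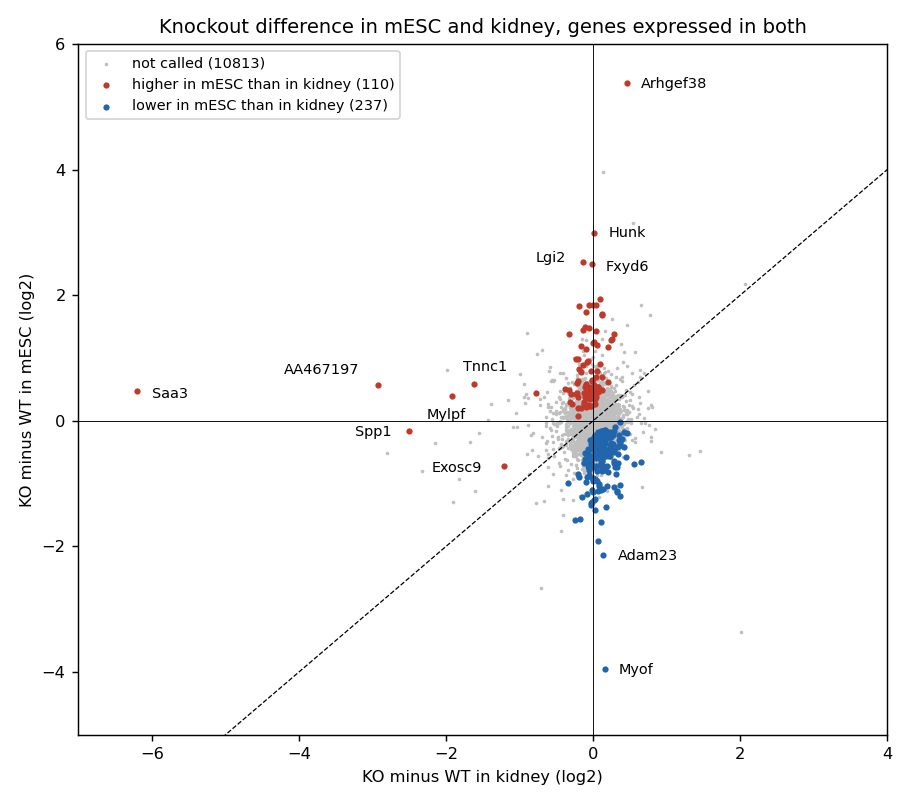
Each point is 1 gene expressed in both tissues, with the log2 difference KO minus WT in kidney on the x axis and in mESC on the y axis. Red marks the 110 genes called higher and blue the 237 called lower in the interaction, grey the others, and the dashed line marks equal differences. Called genes form a narrow column near 0 on the kidney axis, with *Saa3*, *AA467197*, *Spp1*, *Mylpf*, *Tnnc1* and *Exosc9* far to its left. 3 uncalled genes lie outside the axes.

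The called genes were mostly expressed in both tissues. A gene counted as expressed where its mean over the WT or over the KO libraries was at least 1 TPM. By this measure 347 of the 391 genes (88.7%) were expressed in both tissues, 12 in mESC alone, 22 in kidney alone and 10 in neither. The share called was 3.11% of the 11160 tested genes expressed in both, 1.08% of the 1107 in mESC alone, 1.01% of the 2187 in kidney alone and 0.333% of the 3005 in neither. Precision differed as well. The median standard error (SE) of the interaction difference was 0.11 for genes expressed in both, 0.522 in mESC alone, 0.572 in kidney alone and 0.934 in neither. A gene at a few counts in one tissue therefore needed a much larger difference to be called, and the lower shares of the last 3 classes do not show that such genes responded alike.

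Among the 347 called genes expressed in both tissues, 110 were higher and 237 lower in mESC relative to kidney, and 74 had an absolute interaction difference above 1. The WT level was higher in kidney than in mESC for 77 of the 110 higher genes and for 87 of the 237 lower genes, against 45.5% of all tested genes expressed in both. The same WT libraries enter both the level and the difference, so this count is not independent of the call.

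Genes that rose in KO mESC and stayed level in kidney included several regulators. *Hunk*, which encodes a protein kinase, was at 0.83, 0.95 and 0.79 TPM in the WT wells and at 7.27, 6.86 and 7.08 TPM in the KO wells. In kidney it was at 21.9, 20.8 and 22.6 TPM in WT and at 22.4, 24.1 and 23.4 TPM in KO. The KO wells lay above all WT wells, and the kidneys overlapped. An interaction difference of 2.96 (SE 0.104, 95% interval 2.74 to 3.19, adjusted p = 8.27e-11) was found, with 2.98 in mESC and 0.02 in kidney.

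*Fxyd6*, a modulator of the sodium pump, moved in the same way. It was at 15.1, 16.8 and 14 TPM in WT wells and 87.6, 94.5 and 89.7 TPM in KO wells, and the 6 kidneys lay between 188 and 242 TPM. This gave an interaction difference of 2.52 (SE 0.147, adjusted p = 5.07e-08). *Meis2*, a homeobox factor that partners with Hox proteins, was at 1.48, 1.23 and 1.3 TPM in WT wells and 3.97, 4.99 and 4.28 TPM in KO wells, far under the kidneys at 147 to 165 TPM. Its interaction difference was 1.83 (SE 0.114, adjusted p = 1.01e-07). *Etv4*, an ETS factor induced by fibroblast growth factor (FGF) signals, rose from 2.72, 4.48 and 3.92 TPM to 14.49, 13.7 and 16.6 TPM in mESC and overlapped in kidney (53.4 to 68.6 TPM in WT, 58.1 to 68.7 TPM in KO). An interaction difference of 1.80 (SE 0.159, adjusted p = 7.06e-06) was found. In each of these 3 genes the KO wells were above all WT wells and still below every kidney.

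*Arhgef38*, which encodes an exchange factor of small GTPases, and *Lgi2*, a secreted protein of the nervous system, were close to absent in WT wells. *Arhgef38* had 1, 4 and 2 counts in WT wells and 110, 53 and 83 in KO wells, against 0.86 to 2.54 TPM in the kidneys. This gave an interaction difference of 4.93 (SE 0.572, adjusted p = 0.00017). *Lgi2* rose from 0.23, 0.35 and 0.48 TPM to 2.37, 2.33 and 1.97 TPM in mESC, and its interaction difference was 2.68 (SE 0.351, adjusted p = 0.00045). Smaller differences of the same shape were seen for *Plagl1*, an imprinted zinc finger gene (1.24), for *Spry4*, a feedback inhibitor of FGF signalling (1.38), and for *Ccnd3*, a cyclin of the G1 phase (0.49).

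Genes that fell in KO mESC and stayed level in kidney were led by *Myof*, which encodes a membrane repair protein. It was at 42.2, 40.5 and 39.9 TPM in WT wells and at 2.74, 2.74 and 2.84 TPM in KO wells. The kidneys stood at 6.23, 5.7 and 5.76 TPM in WT and 7.71, 5.15 and 8.11 TPM in KO. The gene was thus higher in mESC than in kidney in WT and lower in mESC than in kidney in KO. The interaction difference was −4.11 (SE 0.179, 95% interval −4.49 to −3.73, adjusted p = 1.18e-09).

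*Adam23*, a cell adhesion protein of the ADAM family, fell from 18.7, 20 and 19.8 TPM to 3.79, 6.38 and 5.44 TPM in mESC, with an interaction difference of −2.27 (SE 0.295, adjusted p = 0.00044). *Dpp6*, which modulates potassium channels, fell from 5.2, 5.11 and 4.98 TPM to 1.29, 1.78 and 1.21 TPM, with an interaction difference of −1.99 (SE 0.294, adjusted p = 0.0012). *Prdx6*, an antioxidant peroxiredoxin, fell from 92.2, 88 and 96.3 TPM to 39.1, 38.7 and 38.2 TPM and overlapped in kidney between 176 and 210 TPM. An interaction difference of −1.28 (SE 0.097, adjusted p = 1.03e-06) was found. For each of these 3 genes the WT and KO kidneys overlapped and the wells did not. *Gm8281*, with an interaction difference of −1.73, belongs to a multigene family on chromosome 14 whose reads may be shared between copies, and its value is uncertain for that reason.

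**Figure D2:**
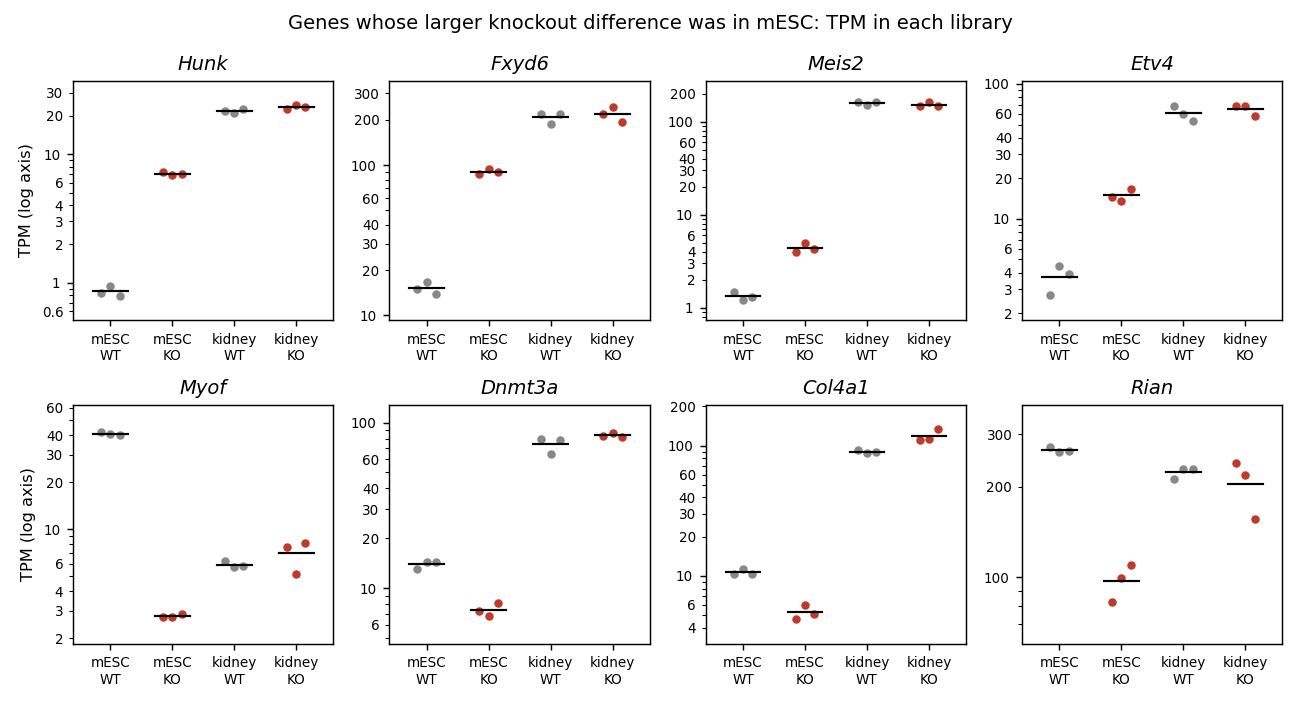
TPM on a log axis in each of the 12 libraries for 8 genes whose larger difference was in mESC, with WT in grey, KO in red and the mean of each group as a bar (n = 3). In mESC the WT and KO points are apart for all 8 genes, upward for *Hunk*, *Fxyd6*, *Meis2* and *Etv4* and downward for *Myof*, *Dnmt3a*, *Col4a1* and *Rian*. In kidney the points overlap except for *Dnmt3a* and *Col4a1*, where the KO embryos are above the WT embryos.

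Both de novo DNA methyltransferase genes were lower in the interaction. Of 15 tested genes of DNA methylation, 2 were lower in the interaction and none was higher (13.3% against the 2.24% of all genes). *Dnmt3a* was at 13, 14.4 and 14.48 TPM in WT wells and 7.27, 6.82 and 8.12 TPM in KO wells, and at 79.6, 64.5 and 78.8 TPM in WT and 83.1, 86.7 and 82.3 TPM in KO kidneys. This gave an interaction difference of −1.02 (SE 0.076, adjusted p = 1.03e-06). *Dnmt3b*, the other de novo enzyme, had an interaction difference of −0.60 (adjusted p = 0.0005), with −0.49 in mESC and 0.11 in kidney. Neither gene was called in kidney.

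Genes of the basement membrane, the sheet of collagen IV and laminin under epithelia, were lower in the interaction for 4 of 26 tested members and higher for none (15.4%). The list did not move 1 way in mESC, where 4 were called higher and 3 lower (2.27% and 4.59% of all genes), with a median of 0. In kidney 2 were called higher (0.0344% of all genes) and 0 lower, with a median of 0.17. *Col4a1* and *Col4a2* encode the chains that form the common collagen IV network. *Col4a1* was at 10.4, 11.3 and 10.4 TPM in WT wells and 4.64, 6.02 and 5.1 TPM in KO wells, while the kidneys rose from 92.2, 88.5 and 89.3 TPM to 111, 112 and 134 TPM without a call there (adjusted p = 0.11). *Col4a2* was at 4.18, 4.18 and 4.75 TPM in WT wells and 2.27, 2.54 and 2.42 TPM in KO wells. The groups did not overlap in either tissue and lay in opposite directions. Their interaction differences were −1.43 (SE 0.108) and −1.35 (SE 0.099), with adjusted p of 1.03e-06 and 9.3e-07. *Lamb1*, the laminin beta chain that occurs with both, had an interaction difference of −0.74 (adjusted p = 0.00085). Within the same list, *Lama1*, the laminin alpha chain of early embryos, moved alike in both tissues and is described further on.

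Genes of the primed state and the germ layers, which mark cells on their way out of naive pluripotency, were lower in the interaction for 4 of 23 tested members (17.4%) and higher for none. Both *Dnmt3a* and *Dnmt3b* are on this list too. Its median difference was −0.23 in mESC and 0.11 in kidney. *Cldn6*, a tight junction claudin of early epithelia, fell from 15.4, 14.9 and 15.8 TPM to 6.12, 7.15 and 8.04 TPM in mESC, with an interaction difference of −1.55 (SE 0.186, adjusted p = 0.00032). *Lef1*, a factor that acts with beta-catenin in Wnt signalling, fell from 3.97, 3.92 and 3.32 TPM to 1.5, 1.43 and 1.48 TPM, with an interaction difference of −1.54 (SE 0.207, adjusted p = 0.00053). Both overlapped between the genotypes in kidney. Wnt pathway genes as a list were lower for 3 of 39 tested members (7.69%), with *Lgr4*, a receptor of R-spondins, at −0.50 and *Wnt5a*, a ligand, at −1.22. *Wnt5a* was below the limit of 1 TPM in mESC, with 22, 29 and 34 counts in WT wells and 15, 6 and 8 in KO wells. Its call (adjusted p = 0.043 by edgeR) was lost under 11 of 20 alternatives. In the naive pluripotency list 2 of 31 tested genes were higher (6.45%), *Gbx2* at 1.61 and *Spp1*, which is described with the kidney. In mESC 4 of the 31 were called higher and 6 lower, against 2.27% and 4.59% of all genes. The median difference over the naive list was −0.08 in mESC. In the FGF pathway 2 of 29 were higher (6.9%), which are *Etv4* and *Spry4*.

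Imprinted genes, read from 1 parental copy, were lower for 3 and higher for 1 of 43 tested (9.3%). Called lower in mESC were 9 of the 43, and 1 was called higher, against 4.59% and 2.27% of all genes. The list median was −0.16 in mESC and −0.08 in kidney. *Rian*, a noncoding RNA of the Dlk1-Dio3 cluster, fell from 272, 261 and 263 TPM to 82.9, 99.5 and 110 TPM in mESC. In kidney it was at 213, 229 and 230 TPM in WT and 241, 219 and 156 TPM in KO. The interaction difference was −1.39 (SE 0.179, adjusted p = 0.0004). *Mirg* and *Meg3*, of the same cluster, were named after their values were seen. *Mirg* had −1.33 (adjusted p = 0.02), and *Meg3* had −0.99 (adjusted p = 0.11), which was not called although it was called in mESC at −1.27. *Gnas*, the stimulatory G protein subunit, was at −0.40 (adjusted p = 0.011).

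Genes of the amino acid stress response, which the factor Atf4 switches on, were lower in the interaction for 3 of 28 tested (10.7%), and their median was −0.22 in mESC and −0.01 in kidney. *Cth*, of cysteine synthesis, was at −0.43 (adjusted p = 0.017) and *Stc2*, a secreted glycoprotein, at −0.85 (adjusted p = 0.045), while *Aars*, an aminoacyl tRNA synthetase, was at −0.27 just inside the threshold (adjusted p = 0.049996). In mESC 10 of the 28 were called lower, against 4.59% of all genes, and the interaction of most of these 10 was not called. *Hmgcs1* was the 1 of 25 tested cholesterol synthesis genes that was called, at −0.51, and *Pfkm* the 1 of 30 of hypoxia and glycolysis, at −0.27. In the cell cycle list 1 of 30 was called, *Ccnd3*. Of the ureteric bud list 1 of 23 was higher (*Etv4*), and of the renal stroma list 1 of 22 was higher (*Meis2*) and 1 lower (*Col3a1*). No interaction was called among 24 p53 targets, 13 genes of leucine breakdown, 23 nephron progenitor genes, 19 retinoic acid genes, 18 macrophage, 18 erythroid, 14 adrenal and gonad genes, or the 4 tested genes of the 2-cell stage.

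**Figure D3:**
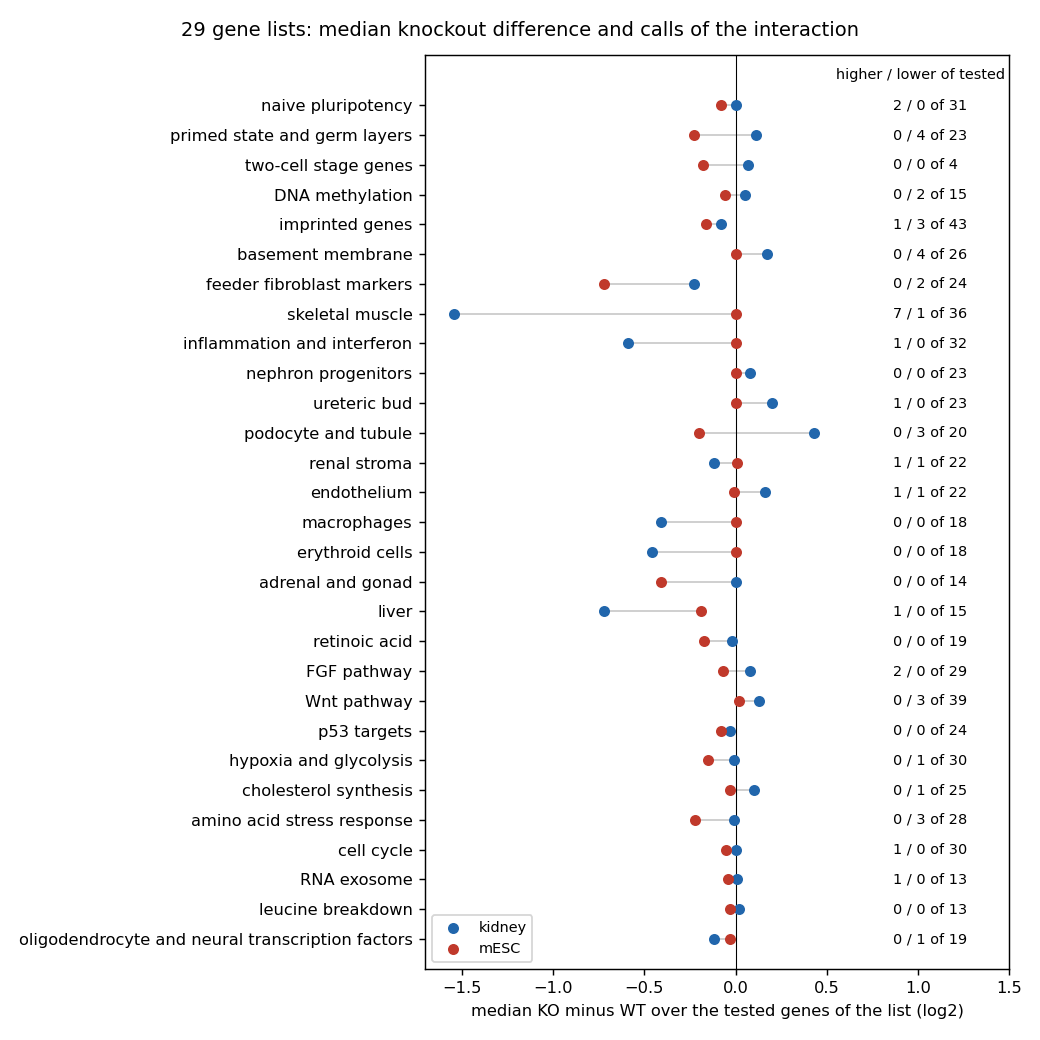
Median log2 difference KO minus WT over the tested genes of each of 29 gene lists, in mESC (red) and in kidney (blue), with the number of genes higher and lower in the interaction out of those tested at the right. Skeletal muscle has the widest gap, with medians of 0 in mESC and −1.54 in kidney. The lists were chosen with earlier results of these data known.

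A few genes were called with expression in mESC alone. *Olig1*, a basic helix-loop-helix factor of the oligodendrocyte lineage and the 1 called of 19 tested genes of that list, was at 36.7, 33.9 and 37.7 TPM in WT wells and 0.05, 0.17 and 0.13 TPM in KO wells, with at most 2 counts in any kidney. An interaction difference of −7.98 (SE 1.62, adjusted p = 0.014) was found, and the call was lost without KO kidney 9 or KO kidney 10 (adjusted p up to 0.23). *Olig2*, its neighbour and relative, named after its values were seen, had 2196, 2353 and 3078 counts in WT wells and 4, 0 and 0 in KO wells, and its interaction was not called by edgeR (SE 68.8, adjusted p = 1) but was called by DESeq2 (adjusted p = 0.00199) and with voom weights (adjusted p = 0.00513). The kidneys held 0, 8 and 1 counts in WT and 0 in each KO library. Both genes thus had few or no counts in kidney. *Gm9923* and *Myh13* were also called, but *Gm9923* had 0 counts in 5 of the 6 kidneys and *Myh13* had 0 counts in each WT kidney and at most 7 in a KO kidney. Their fitted values of −14.1 and −4.99 rest on those zeros and are no measure of size.

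Among genes expressed in kidney alone, *Kdr*, the receptor of vascular endothelial growth factor, was at 0.1, 0.19 and 0.15 TPM in WT wells and 0.69, 0.73 and 0.68 TPM in KO wells, with 8.94 to 15.9 TPM over the kidneys. This gave an interaction difference of 1.93 (SE 0.348, adjusted p = 0.006). *Cldn5*, an endothelial claudin, stood in the opposite direction at −2.11 (adjusted p = 0.025). These are the 1 higher and the 1 lower of 22 tested endothelial genes. *Thbs1* (−1.78) and *Col3a1* (−2.10), an adhesive glycoprotein and a fibrillar collagen of fibroblasts, fell in mESC from 0.62, 0.66 and 0.77 TPM to 0.2, 0.24 and 0.34 TPM and from 0.39, 0.34 and 0.5 TPM to 0.11, 0.05 and 0.08 TPM. Both are on the list of feeder fibroblast markers, of which 2 of 24 tested were lower in the interaction (8.33%). In mESC the median difference over the list was −0.72, with 3 called lower and 0 higher (4.59% and 2.27% of all genes). The summed level of the list over mESC libraries was 407 to 419 TPM in WT and 407 to 494 TPM in KO, with 2 markers at 0 in each genotype. Most of that sum is *Fn1*, fibronectin, with a mean of 401 TPM in WT and 448 TPM in KO wells. The part of feeder cells in these results was not tested. *Gm26680* (−3.67) and *Gm3752* (−2.40) lie in repeated gene families on chromosome 14 and are uncertain.

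A smaller group of interaction calls came from a larger change in kidney. In bulk tissue, fewer cells of a type and less RNA per cell cannot be told apart. Of 36 tested skeletal muscle genes, 7 were higher and 1 lower in the interaction (22.2%). In kidney 12 of the 36 fell and none rose, against 0.189% of all genes that fell, and in mESC 1 rose and 3 fell. The median difference over the 36 genes was −1.54 in kidney and 0 in mESC.

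*Mylpf*, the regulatory light chain of fast muscle myosin, was at 17.7, 16.6 and 12.3 TPM in WT kidneys and at 5.93, 4.76 and 3.88 TPM in KO kidneys. In mESC it was at 179, 153 and 171 TPM in WT and 218, 238 and 236 TPM in KO. It was called in both tissues in opposite directions, lower in kidney (−1.92, SE 0.144) and higher in mESC (0.40, SE 0.103). The interaction difference was 2.32 (SE 0.177, 95% interval 1.94 to 2.69, adjusted p = 1.15e-06).

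*Ttn*, the giant spring protein of the sarcomere, had 125, 67 and 79 counts in WT kidneys and 31, 22 and 21 in KO kidneys, against 1605 to 2832 counts in mESC, and its interaction difference was 2.70 (SE 0.319, adjusted p = 0.0002). *Casq2*, a calcium store protein, had 34, 24 and 21 counts in WT kidneys and 2, 8 and 13 in KO kidneys, with an interaction difference of 3.29 (SE 0.561, adjusted p = 0.0038). The myosin heavy chain genes *Myh8* and *Myh3* had 2.70 (adjusted p = 0.00045) and 2.35 (adjusted p = 0.043). *Tnnc1*, a troponin, and *Neb*, the thin filament ruler, were named after their values were seen. They had 2.22 (adjusted p = 0.013) and 1.23 (adjusted p = 0.0061). For *Mylpf*, *Ttn*, *Casq2*, *Myh8*, *Myh3* and *Tnnc1* all KO kidneys lay below all WT kidneys. By the limit of 1 TPM, *Ttn*, *Casq2* and *Neb* counted as expressed in mESC alone, with means of 0.06, 0.78 and 0.63 TPM in WT kidneys. *Myh3* counted as expressed in kidney alone and *Myh8* in neither tissue.

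The 1 muscle gene that was lower in the interaction behaved differently. *Tpm2*, a tropomyosin that smooth muscle also uses, fell in mESC from 6.98, 6.71 and 6.21 TPM to 3.03, 3.78 and 4.02 TPM and overlapped in kidney between 150 and 173 TPM, with an interaction difference of −0.80 (adjusted p = 0.012). For 5 of the 12 muscle genes that fell in kidney the interaction was not called by edgeR. *Myl4*, the 1 of them above 1 TPM in mESC, is described further on. *Acta1*, skeletal actin, also named after its values were seen, went from 8.84, 8.95 and 6.98 TPM to 2.39, 1.52 and 0.67 TPM in kidney and was at or below 0.12 TPM in mESC, with an interaction adjusted p of 0.21 by edgeR and 0.0195 with voom weights. *Myod1* and *Myog*, the factors that define skeletal muscle precursors, had means of 0.643 and 2.82 TPM in WT kidneys and 0.24 and 0.987 TPM in KO kidneys, neither called, and were likewise chosen with their values known. The summed level of 43 muscle genes was 319 to 357 TPM in WT kidneys and 262 to 293 TPM in KO kidneys, with 2 and 1 of them at 0. The part of muscle cell content in these results was not tested.

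Genes of inflammation formed another part of the kidney change. *Saa3*, an acute phase serum amyloid protein, was at 4.51, 8.62 and 13.9 TPM in WT kidneys and 0.18, 0.09 and 0.09 TPM in KO kidneys, which is 40, 60 and 70 counts against 1 count in each KO library. In mESC it was at 12.9, 13.2 and 12 TPM in WT and 17.3, 17.9 and 20 TPM in KO. An interaction difference of 6.67 (SE 0.643, 95% interval 5.29 to 8.05, adjusted p = 6.5e-05) was found, with −6.20 in kidney and 0.47 in mESC, the latter not called. *AA467197*, whose transcript is induced in inflammation, had 15, 16 and 9 counts in WT and 1, 1 and 5 counts in KO kidneys, and 16 to 17.5 TPM in WT and 24.1 to 27.6 TPM in KO wells. This gave an interaction difference of 3.49 (SE 0.46, adjusted p = 0.00045). *Cd72*, a B cell and myeloid surface protein, fell in kidney from 1.84, 1.72 and 1.68 TPM to 0.73, 0.88 and 0.92 TPM. In mESC it had 0, 1 and 0 counts in WT and 5, 1 and 7 counts in KO wells, so its interaction difference of 5.28 (SE 0.92, adjusted p = 0.0045) rests on 1 WT count and is no measure of size. *Spp1*, a secreted phosphoprotein of many cell types, was at 4.3, 6.35 and 7.82 TPM in WT and 1.02, 1.67 and 0.56 TPM in KO kidneys and above 1000 TPM in every mESC library, with an interaction difference of 2.35 (adjusted p = 0.026). *Il1a*, an interleukin named after its values were seen, had 9, 5 and 15 counts in WT and 0, 1 and 2 counts in KO kidneys (interaction adjusted p = 0.025). It was below the limit of 1 TPM in both tissues, with 3, 2 and 2 counts in WT wells and 6, 2 and 5 in KO wells. Its interaction difference is therefore no measure of size.

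Across the list of inflammation and interferon genes, 6 of 32 tested fell in kidney, against 0.189% of all genes, and 1 was called in the interaction by edgeR (3.12%, against 2.24% of all genes), which is *Saa3*. With voom weights 5 of the list were called, and with DESeq2 0, where *Saa3* has no adjusted p. The other 5 that fell in kidney, *Cxcl10*, *Ifit1*, *Il1b*, *Isg15* and *Mx1*, were below the limit of 1 TPM in mESC, and their interaction was not called by edgeR. The summed level of 20 macrophage markers was 94.6 to 119 TPM in WT kidneys and 67.6 to 89.3 TPM in KO kidneys, so the groups did not overlap. The part of macrophage content in these results was not tested. *Ahsg*, a liver plasma protein and the 1 called of 15 tested liver genes, had 2.45 (adjusted p = 0.049) and was below the limit of 1 TPM in kidney.

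**Figure D4:**
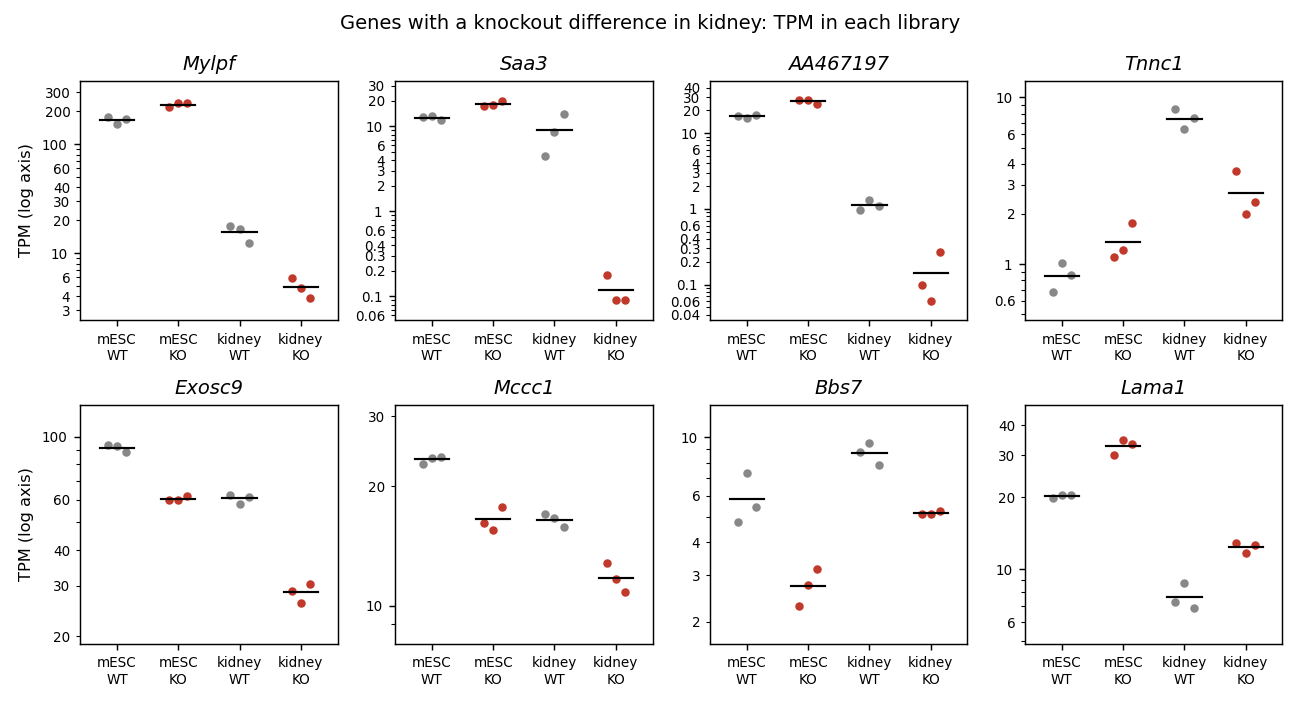
TPM on a log axis in each of the 12 libraries for 8 genes with a called difference in kidney, with WT in grey, KO in red and the mean of each group as a bar (n = 3). In the upper row the KO kidneys are lower and the KO wells higher than WT. In the lower row WT and KO move in the same direction in both tissues.

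Some genes expressed by epithelia had a negative interaction difference without a call in kidney. *Lrp2*, the endocytic receptor megalin, was at 1.45, 1.53 and 1.54 TPM in WT wells and 0.95, 1.01 and 1.01 TPM in KO wells, and at 0.99, 0.75 and 0.65 TPM in WT and 1.58, 1.2 and 1.25 TPM in KO kidneys, without a call there (adjusted p = 0.076). Its interaction difference was −1.30 (SE 0.194, adjusted p = 0.0013). *Podxl*, the main sialomucin of podocytes, had −1.26 (SE 0.232, adjusted p = 0.0069). Of the podocyte and tubule list, 3 of 20 tested were lower in the interaction (15%), the third being *Cldn5*, which is also on the endothelial list. *Epcam* (−1.0), *Lsr* (−1.40) and *Cgn* (−0.75), all genes of epithelial contacts, were named after their values were seen and were lower in the interaction too. None of these 5 genes was called in kidney, where *Podxl* and *Cgn* overlapped between the genotypes, and *Cgn* was not called in mESC (adjusted p = 0.083). The summed level of 25 podocyte and tubule markers was 280 to 326 TPM in WT and 307 to 352 TPM in KO kidneys, and that of 24 ureteric bud markers 432 to 564 TPM in WT and 521 to 639 TPM in KO. The part of cell type content in these results was not tested. *Frem2*, a protein of the epithelial basement membrane, was called in kidney, where it rose from 16.9, 15.8 and 18.7 TPM to 22.4, 24.6 and 24.6 TPM (0.40, adjusted p = 0.035), with an interaction difference of −0.69 (adjusted p = 0.0028). *Itga6*, a laminin receptor (−0.38), and *Fam199x* (−0.39) were also called in kidney and not in mESC. All 3 were named after their values were seen.

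Only 7 genes were called in both tissues, and 5 of them moved in the same direction. *Exosc9*, which encodes a core subunit of the RNA exosome and was the 1 called of 13 tested exosome genes, fell in both tissues and fell further in kidney. It was at 93.3, 92.9 and 88.2 TPM in WT wells and 59.8, 60 and 62 TPM in KO wells, and at 62.5, 58.2 and 61.4 TPM in WT kidneys and 28.8, 26.1 and 30.5 TPM in KO kidneys. The differences were −0.73 (SE 0.067) in mESC and −1.21 (SE 0.069) in kidney. An interaction difference of 0.49 (SE 0.095, 95% interval 0.29 to 0.69, adjusted p = 0.011) was found. It kept its call under all alternatives tried, up to an adjusted p of 0.045.

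*Mccc1*, a subunit of the carboxylase that breaks down leucine, fell to a like extent in both tissues. It went from 22.8, 23.6 and 23.7 TPM to 16.2, 15.6 and 17.8 TPM in mESC and from 17, 16.6 and 15.8 TPM to 12.8, 11.7 and 10.9 TPM in kidney. The differences were −0.53 and −0.62, and the interaction difference of 0.09 had a 95% interval of −0.09 to 0.27 (adjusted p = 0.69). *Bbs7*, a subunit of the BBSome that carries cargo to cilia, fell from 4.78, 7.34 and 5.44 TPM to 2.3, 2.75 and 3.16 TPM in mESC and from 8.79, 9.53 and 7.87 TPM to 5.14, 5.13 and 5.24 TPM in kidney. Its interaction difference of −0.42 (95% interval −0.74 to −0.11) was not called (adjusted p = 0.16). For *Exosc9*, *Mccc1* and *Bbs7* each KO library was under every WT library of its tissue.

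*Lama1* rose in both tissues, from 19.8, 20.4 and 20.4 TPM to 30.1, 34.7 and 33.4 TPM in mESC and from 7.29, 8.72 and 6.86 TPM to 12.8, 11.7 and 12.6 TPM in kidney. Both differences were 0.62, and the interval of the interaction difference was −0.23 to 0.23. *Myl4*, a myosin light chain of atrial and embryonic muscle, fell by 0.92 in mESC and fell by 1.82 in kidney, with an interaction difference of 0.90 (95% interval 0.18 to 1.62, adjusted p = 0.20). The remaining 2 genes, *Mylpf* and *Cd72*, were called in opposite directions, the latter in mESC on the few counts given above.

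Around *Peril*, 22 genes with a start within 2 Mb were tested and 14 were expressed in both tissues. The interaction was called for 1 of them (2.24% of all tested genes), *Exosc9*, which begins 1780.5 kb from the start of *Peril*, while 5 were called in mESC and 3 in kidney, against 6.86% and 0.223% of all tested genes. The median absolute interaction difference of the 14 genes was 0.124, against 0.122 for all genes expressed in both tissues. *Sox2*, which begins at −121.7 kb on the other side, was at 266, 268 and 259 TPM in WT wells and 250, 258 and 257 TPM in KO wells. In kidney it was near 0 except in WT embryo 3 (0.02, 0.89 and 0.06 TPM in WT, 0.08, 0.03 and 0.01 TPM in KO). Its interaction difference of 3.17 (SE 1.12, adjusted p = 0.17) rests on that embryo, and without it the value was −0.04.

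Along the genome, the share of called genes was between 1.35% and 4.48% of the tested genes of an autosome. Chromosome 14 had the highest share, with 29 of 648 genes, 19 higher and 10 lower. Most of the higher ones lay in its distal part. Among genes expressed in both tissues that begin at 79 Mb or beyond (mm10), 13 of 52 were called higher and none lower (25%), whereas before 79 Mb 3 of 347 were higher and 7 lower. This boundary was chosen after the values were seen, so these counts are a description.

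In the distal part 48 of the 52 genes were above 0 in mESC, with a median difference of 0.342 and quartiles of 0.232 and 0.443, which is a 1.27-fold level. The median difference of the same genes in kidney was 0.033. Set against the mean of the WT wells, the median over the 52 genes was 0.382, 0.278 and 0.301 in the KO wells and −0.012 to 0.018 in the WT wells, and it was −0.009, 0.084 and 0.013 in the KO kidneys. All KO wells thus lay above all WT wells in this region, and before 79 Mb they lay at −0.014, −0.11 and −0.064. Over 254 windows of 10 Mb with at least 8 such genes, medians in mESC outside chromosome 14 did not exceed 0.098, while the windows from 100, 110 and 120 Mb of chromosome 14 stood at 0.281, 0.466 and 0.23. Below 0 the medians reached further, to −0.17 on chromosome 12 (30 to 40 Mb) and to −0.248 on chromosome 14 (0 to 10 Mb), the lowest of all windows.

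Genes of this region were named after their values were seen. *Dnajc3*, a chaperone of the endoplasmic reticulum, rose from 20, 20.1 and 19.9 TPM to 27.8, 30.6 and 28.5 TPM (interaction 0.39, adjusted p = 0.0033). *Uggt2*, a folding sensor of glycoproteins, rose from 5.29, 3.76 and 4.48 TPM to 9.95, 12.3 and 11.4 TPM (interaction 1.24, adjusted p = 5.04e-05). *Klf5*, a factor of naive stem cells, was at 87.9, 86.9 and 92 TPM in WT wells and 119, 121 and 112 TPM in KO wells, with an interaction difference of 0.26 that was not called (adjusted p = 0.52). With 1 clone per genotype, a difference between the clones in this region and an effect of the deletion cannot be told apart. Leaving out single libraries took the count of 13 to between 4 and 13, with 4 without KO well 3 or WT well 2. *Ephx2*, an epoxide hydrolase before this region on the same chromosome, moved the other way in mESC, from 95.9, 98.2 and 98.9 TPM to 56.5, 56.1 and 57.3 TPM (interaction −0.79, adjusted p = 0.011).

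**Figure D5:**
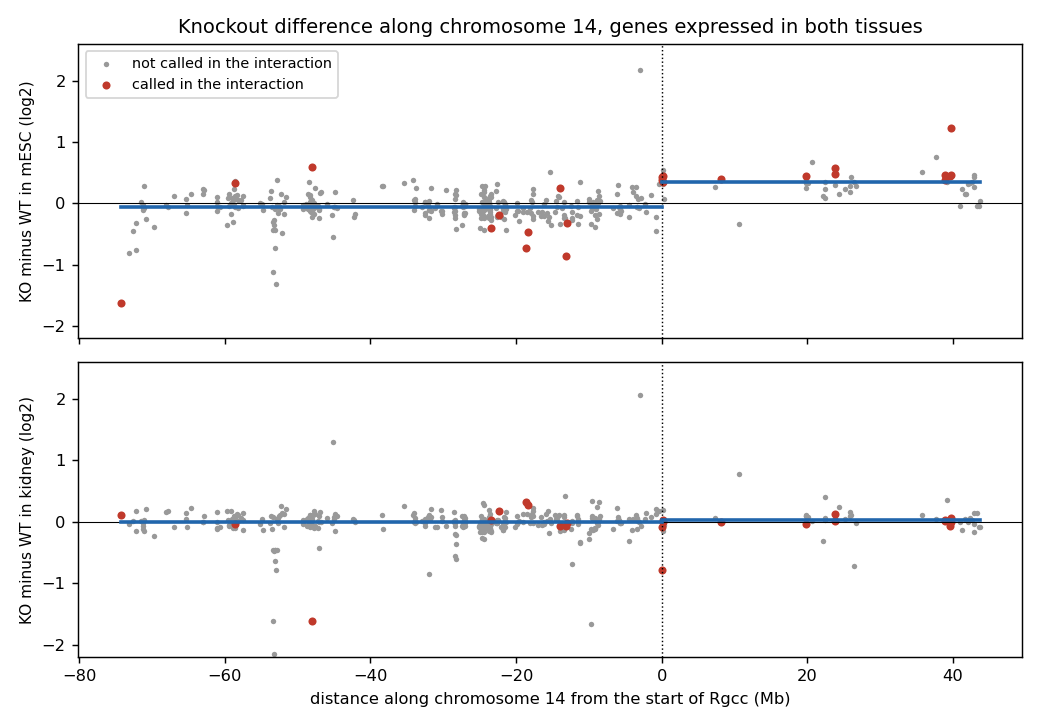
Log2 difference KO minus WT in mESC (top) and kidney (bottom) for the 399 genes of chromosome 14 expressed in both tissues, against the distance in Mb from the start of *Rgcc*, the first gene called in the distal block. Red marks genes called in the interaction, and blue lines give the median on each side, −0.054 and 0.342 in mESC and 0.004 and 0.033 in kidney.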

How the data were processed

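The authors sequenced poly(A)-selected RNA (whether the strand was kept is not given in the sources used here, so overlapping antisense genes cannot be told apart). Alignment was to mm10 with quantification by RSEM (version not given in the sources used here). The deposited files hold estimated counts (expected counts) and TPM. Expected counts were rounded, and reads of repeated or overlapping genes may be shared. All 16 libraries entered a quasi-likelihood fit (edgeR 4.0.16, R 4.3.3, TMM, filterByExpr) with a coefficient for each combination of tissue and genotype, over 17459 genes with Benjamini-Hochberg adjustment. Standard errors are the absolute log2 difference divided by the square root of F. For each gene the estimate of spread was shared by all groups, so it pools embryos with wells of a clone. The p-values and standard errors of either tissue are therefore not those of its own libraries alone. Within groups the median standard deviation of log2 CPM was 0.0422 in WT wells, 0.0762 in KO wells, 0.0909 in WT kidneys and 0.0719 in KO kidneys.

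The members, lists and tests were chosen with earlier results of these data known. Named genes are the 6 largest differences in each direction among called genes expressed in both tissues and the 4 smallest p, and the 3 largest among those expressed in 1 tissue. They are also the genes called in both tissues, *Peril*, *LacZ*, *Sox2*, *Exosc9*, *Mccc1*, *Bbs7* with called genes within 2 Mb, and up to 3 called members of each list. Others were named after their values were seen, as the text states. Positions are from GENCODE vM21, and that of *Peril* is that of Gm38509, of which it is a synonym. Data were simulated for the interaction with 17318 genes, with changes placed in KO mESC only and in genes well counted in both tissues. The fit recovered 58.2% of genes changed 1.5-fold, 97% of those changed 2-fold and 97% of those changed 3-fold. Of its calls 5.1% were false. The simulation held no clone difference, and its rates do not cover genes with low counts in either tissue. Alternatives were DESeq2 1.42.0, limma 3.58.1 with voom weights, RLE factors, 2 other filters, the 12 libraries alone, sex as a covariate, a replicate block, other thresholds and leaving out each mESC and kidney library (the GEOB libraries stayed in). Where a count is 0, the limit given allows for counting error alone. Some named results are not reported here. The reporter assay and the Hi-C data were not used here. Tables and figures were made with Python 3.11.15, pandas 2.3.3 and matplotlib 3.10.9.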

Additional observations from a re-analysis of the deposited data

Results flagged for a closer look

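The difference KO minus WT differed between mESC and kidney for 391 genes, by edgeR's quasi-likelihood test of the interaction. In mESC the genotypes are different clones, so an effect of the knockout and a clone difference cannot be told apart there. The genes named here are among the 391, each with the difference in mESC minus the difference in kidney on the log2 scale.

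Genes in which the larger part was in mESC and the value was positive were *LacZ* at 12.33, *Arhgef38* at 4.93, *Hunk* at 2.96, *Lgi2* at 2.68, *Fxyd6* at 2.52, *Kdr* at 1.93, *Meis2* at 1.83, *Etv4* at 1.80, *Gbx2* at 1.61, *Spry4* at 1.38, *Uggt2* at 1.24, *Plagl1* at 1.24, *Ccnd3* at 0.49 and *Dnajc3* at 0.39. *Cd72* at 5.28 had 1 count in all over the WT wells.

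Genes in which the larger part was in kidney and the value was positive were *Saa3* at 6.67, *Il1a* at 4.81, *AA467197* at 3.49, *Casq2* at 3.29, *Myh8* at 2.70, *Ttn* at 2.70, *Ahsg* at 2.45, *Myh3* at 2.35, *Spp1* at 2.35, *Mylpf* at 2.32, *Tnnc1* at 2.22 and *Neb* at 1.23. Over the KO kidneys *Saa3* had 1 count in each library, *AA467197* had 1, 1 and 5 counts and *Il1a* had 0, 1 and 2. The size of their values is uncertain for that reason. *Exosc9* at 0.49 fell in both tissues and further in kidney.

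Genes in which the value was negative by 1 or more were *Myof* at −4.11, *Adam23* at −2.27, *Cldn5* at −2.11, *Col3a1* at −2.10, *Dpp6* at −1.99, *Thbs1* at −1.78, *Cldn6* at −1.55, *Lef1* at −1.54, *Col4a1* at −1.43, *Lsr* at −1.40, *Rian* at −1.39, *Col4a2* at −1.35, *Mirg* at −1.33, *Lrp2* at −1.30, *Prdx6* at −1.28, *Podxl* at −1.26, *Wnt5a* at −1.22, *Dnmt3a* at −1.02 and *Epcam* at −1.0. *Gm26680* at −3.67, *Gm3752* at −2.40 and *Gm8281* at −1.73 are multigene family members whose reads may be shared between copies. *Gm9923* at −14.1, *Olig1* at −7.98 and *Myh13* at −4.99 had few or 0 counts in kidney.

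Genes with a smaller negative value were *Stc2* at −0.85, *Tpm2* at −0.80, *Ephx2* at −0.79, *Cgn* at −0.75, *Lamb1* at −0.74, *Frem2* at −0.69, *Dnmt3b* at −0.60, *Hmgcs1* at −0.51, *Lgr4* at −0.50, *Cth* at −0.43, *Gnas* at −0.40, *Fam199x* at −0.39, *Itga6* at −0.38, *Pfkm* at −0.27 and *Aars* at −0.27.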

How the results depend on the processing

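Of the 68 called genes named, 45 kept their call under each alternative that gave them a value and 68 kept their direction. Over 1547 pairs of named gene and alternative, 1347 kept side and direction, 183 lost the call, 10 gained it and 7 changed sign. The sign changes were *Sox2* at −0.04 without WT kidney 3 (−0.04 to 3.93 without single libraries) and *Lama1*, whose value near 0 was −0.0029 with a filter on the sum of counts, −0.0011 with voom weights and from −0.1 to 0.06 without single libraries. Calls were lost under at least 1 alternative for *Gm8281*, *Gm9923*, *Olig1*, *Myh13*, *Myh3*, *Gm26680*, *Gm3752*, *Cldn5*, *Gbx2*, *Spp1*, *Col3a1*, *Ahsg*, *Wnt5a*, *Pfkm*, *Cth*, *Stc2*, *Aars*, *Cgn*, *Itga6*, *Tnnc1*, *Mirg*, *Fam199x* and *Il1a*. Calls were gained for *Olig2* (DESeq2 and voom weights), *Acta1* (voom weights), *Sox2* (sex covariate and without WT kidney 1), *Meg3* (without KO kidney 10) and *Gpc6* (4 alternatives). The cause was not tested.

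The 391 interaction calls became 704 with DESeq2 (376 shared), 157 at an adjusted p under 0.01, 115 at an absolute difference above 1 and 214 to 457 without single libraries. They were 243 without KO well 2, 214 without KO well 3, 241, 215 and 216 without WT wells 1, 2 and 3, and 457 without KO well 1, of which 321 were shared. The 1198 mESC calls became 2883 with voom weights and 596 to 1486 without single libraries (626 without KO well 2, 596 without KO well 3, and 624, 634 and 622 without WT wells 1, 2 and 3). The 39 kidney calls became 76 with DESeq2, 24 with the replicate block and 20 to 77 without single libraries (20 without KO kidney 10, 77 without WT kidney 1).

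By expression, the calls in both tissues became 632 with DESeq2 and 189 to 422 without single libraries. Those in mESC alone became 20 with the 12 libraries, 27 with DESeq2, 25 at 5 TPM and 7 to 21 without single libraries. Those in kidney alone became 40 with DESeq2, 14 with the replicate block, 10 at 0.5 TPM, 50 at 5 TPM and 8 to 28 without single libraries, and those in neither became 5 with DESeq2, 4 at 0.5 TPM, 52 at 5 TPM and 5 to 13 without single libraries.

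Wells with the same number did not deviate together (correlations of 0.08, −0.014 and 0.074), so the numbers do not pair them, and a replicate block in mESC gave 269 interaction calls. Low counts limit genes expressed in 1 tissue.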
